A study of Mus musculus with 18 samples.

Results

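Cytosolic nucleic acid sensors report foreign or misplaced RNA and DNA inside a cell, and 7 mouse genes of this kind, taken by name, are described here: Zbp1, Ddx58, Ifih1, Dhx58, Mavs, Tmem173 and Trex1. They are 7 of the 37620 gene IDs counted in each library, 6 of them passed the filter on low counts, and Trex1 had no count in any library. Ddx58 (the receptor RIG-I), Ifih1 (MDA5) and Dhx58 (LGP2) are RNA helicases that bind viral-type RNA. RIG-I and MDA5 pass the signal to MAVS, an adaptor on mitochondria, which switches on type I interferon. Tmem173 (STING) is the adaptor of the DNA-sensing arm at the endoplasmic reticulum, Zbp1 binds left-handed Z-form nucleic acid and can start inflammatory cell death, and Trex1 is the exonuclease that clears cytosolic DNA and so restrains STING. Several of these genes are themselves induced by type I interferon.

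The samples were 18 melanomas of MO4, a B16F10 mouse melanoma line of C57BL/6 origin that expresses ovalbumin. On day 0 each C57BL/6 host received 100000 MO4 cells subcutaneously in the right and again in the left hindlimb. IFN-alpha-pMC tumours came from mice given IFN-α-iPSC-pMCs, cells of induced pluripotent stem cell origin that carry the IFN-α mark in their name, next to the right-hand tumour on day 5, day 6 and day 7, at 1000000 cells per injection. The pMC tumours came from mice given iPSC-pMCs without that mark on the same days and at the same number, and control tumours came from untreated mice. The right tumour was thus the one near the injected cells and the left tumour a distant one. RNA was taken from all tumours on day 11, and each of the 6 groups (IFN-alpha-pMC, pMC and control, right and left) held 3 libraries. Whether the 3 tumours of a group grew in different mice is not stated in the labels, so the p-values rest on the spread among these tumours, which may be technical in part. The labels also do not say which right and left tumours shared a mouse, and tests between sides treated all tumours as independent.

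Libraries held 14346091 to 23430259 gene counts. All 8 melanocyte and melanoma markers looked at were detected and summed to 29847 to 44711 CPM (a gene's counts per 1000000 counts of its library, with library sizes scaled by trimmed means) in all 18 libraries. In the 3 groups with the lowest correlations among their libraries, the library least like its own group was right IFN-alpha-pMC 3, left IFN-alpha-pMC 1 and right control 3 (mean Spearman correlation 0.9629, 0.9678 and 0.9454). Right control 2 was also low, at 0.9584. Results that turn on the first 3 of these libraries are given with and without them, which leaves 2 in each of those groups. Dropping libraries because they departed from their group narrows the spread within groups by construction. Adjusted p-values of that fit can therefore be too small, and its calls too many. Reads in no annotated feature were 4.04 to 6.12% in the 6 IFN-alpha-pMC libraries and 6.87 to 12.21% in the other 12, which cannot be told apart from the treatment.

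From RefSeq on build GRCm38.p6 no promoter sequence was at hand for Zbp1, Dhx58 or Tmem173. Promoter sequences (250 bases before to 50 after the start site) were at hand for the other 4 of the 7 genes. They are shown for an RNA receptor that rose with IFN-alpha-pMC, one that was not called and the adaptor that serves both, with any match to the core of the interferon-stimulated response element, GAAA, any 2 bases and GAAA on either strand, in capitals. The Ifih1 promoter (chr2:62646206-62646505, minus strand) holds a match that starts at base 33 after the start site. The Ddx58 promoter (chr4:40239776-40240075, minus strand) holds one on the opposite strand, from base 3, and the Mavs promoter (chr2:131233813-131234112, plus strand) holds none.
Ifih1: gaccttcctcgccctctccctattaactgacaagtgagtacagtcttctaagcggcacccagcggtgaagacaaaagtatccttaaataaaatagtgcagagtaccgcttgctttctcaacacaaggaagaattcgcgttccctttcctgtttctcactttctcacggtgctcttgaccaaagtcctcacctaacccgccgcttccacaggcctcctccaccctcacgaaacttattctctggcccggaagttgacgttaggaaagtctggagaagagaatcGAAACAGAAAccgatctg
Ddx58: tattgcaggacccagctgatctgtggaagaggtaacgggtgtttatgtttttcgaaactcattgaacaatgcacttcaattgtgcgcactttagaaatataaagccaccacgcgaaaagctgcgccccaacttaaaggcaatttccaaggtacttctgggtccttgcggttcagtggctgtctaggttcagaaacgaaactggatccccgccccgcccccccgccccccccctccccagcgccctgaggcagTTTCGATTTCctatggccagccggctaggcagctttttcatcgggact
Mavs: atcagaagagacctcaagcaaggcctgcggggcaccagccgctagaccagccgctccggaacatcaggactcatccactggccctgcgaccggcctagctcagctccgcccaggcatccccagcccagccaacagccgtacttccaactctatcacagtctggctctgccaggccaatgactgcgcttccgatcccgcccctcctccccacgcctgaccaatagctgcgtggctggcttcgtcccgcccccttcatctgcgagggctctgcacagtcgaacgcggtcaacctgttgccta
The 2 Trex1 promoters at hand, which are not shown, hold no match. The element was found in 3.44% of 32851 mouse promoters of 300 bases. A match describes letters in this window, and no binding was measured here.

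On the injected side, the sensor genes called with IFN-alpha-pMC were all higher. Against control, Zbp1, Dhx58 and Ifih1 rose, 3 of the 6 genes tested, where 10.8% of all 14849 genes were called in either direction (1303 higher, 298 lower). Against pMC the same 3 genes and Tmem173 rose, 4 of 6, where 10.1% of all genes were called. The median log2 fold change of the 6 genes was 0.54 against control and 0.64 against pMC, and that of all genes was -0.03 and -0.04. Both comparisons use the same IFN-alpha-pMC libraries, so they are not independent of each other. The sensor genes were chosen with earlier results of these data known, so their counts are descriptions and no test of the set. Calls are adjusted p-values under 0.05 from edgeR's quasi-likelihood test, adjusted over all genes tested.

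In the distant tumours, which received no injection, fewer of the genes were called. Against control, Zbp1 and Dhx58 rose, 2 of 6, where 6.65% of all genes were called (601 higher, 386 lower). Against pMC, Zbp1 alone of the 6 was called, where 3.85% of all genes were. The median of the 6 genes was 0.26 and 0.28 on the log2 scale, and that of all genes was 0.07 in both. That fewer genes were called on the left does not show that the response differed between sides, and the tests of that difference are given further on.

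With the cells without the IFN-α mark, no sensor gene was called when all libraries were used. With pMC against control, edgeR's quasi-likelihood test called 0 of the 6 on either side, where 0% of all genes were called. At an unadjusted p under 0.05 the test found none of the 6 on either side, and 359 (right) and 119 (left) of all 14849 genes. DESeq2 called 2 genes on the right and 1 on the left, and no sensor gene. The median of the 6 was -0.04 on the right and 0 on the left. Without the 3 libraries least like their group, 3 of the 6 were called on the right, among 5067 of all genes: Zbp1 higher (0.52, adjusted p = 0.00929), and Mavs (-0.46, adjusted p = 0.0161) and Ddx58 (-0.37, adjusted p = 0.048) lower. The limit of that fit given above holds for these calls.

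**Figure D1:**
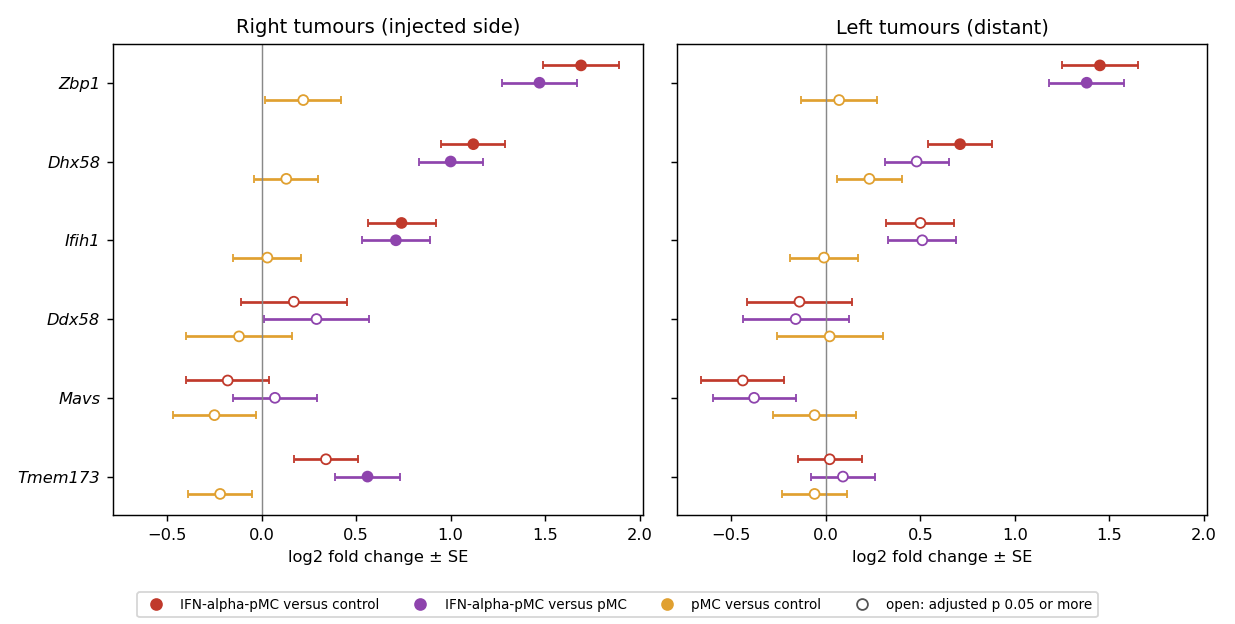
Log2 fold change ± SE of the 6 tested sensor genes in right (injected side) and left (distant) tumours, for IFN-alpha-pMC against control, IFN-alpha-pMC against pMC and pMC against control. Filled points passed an adjusted p of 0.05 in edgeR's quasi-likelihood test, and Zbp1 is filled in all 4 comparisons of IFN-alpha-pMC.

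Zbp1 (ENSMUSG00000027514) had the largest change with IFN-alpha-pMC of the 6 genes tested. In right tumours it stood at 426, 419 and 339 CPM with IFN-alpha-pMC, at 136, 148 and 143 CPM with pMC and at 85.4, 113 and 170.1 CPM in controls. On the distant side it stood at 310.3, 338 and 294 CPM with IFN-alpha-pMC, at 120.1, 123 and 119 CPM with pMC and at 97.7, 129 and 117 CPM in controls. All 6 IFN-alpha-pMC libraries lay above all 12 others, whose highest value was that of right control 3. The log2 fold change against control was 1.69 ± 0.20 (SE) on the right (3.22-fold, adjusted p = 3.76e-05) and 1.45 ± 0.20 on the left (2.74-fold, adjusted p = 0.00187). Against pMC it was 1.47 ± 0.20 on the right (adjusted p = 0.000105) and 1.38 ± 0.20 on the left (adjusted p = 0.00346). These 4 calls held in every alternative run. Without the 3 libraries named above the change against control was 2.04 on the right and 1.45 on the left. In these bulk samples more cells that express a gene and more RNA per cell cannot be told apart.

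The pMC and control levels of Zbp1 were close. Its mean was 142 ± 6.07 CPM (SD, n = 3) in right pMC tumours and 123 ± 43.3 CPM in right controls, a log2 fold change of 0.22 ± 0.20 (95% interval -0.21 to 0.64). On the left the means were 121 ± 2.44 CPM with pMC and 115 ± 16 CPM in controls (0.07 ± 0.20, interval -0.36 to 0.50). Library 3 was the highest right control, at 170.1 CPM, above all 3 pMC libraries.

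**Figure D2:**
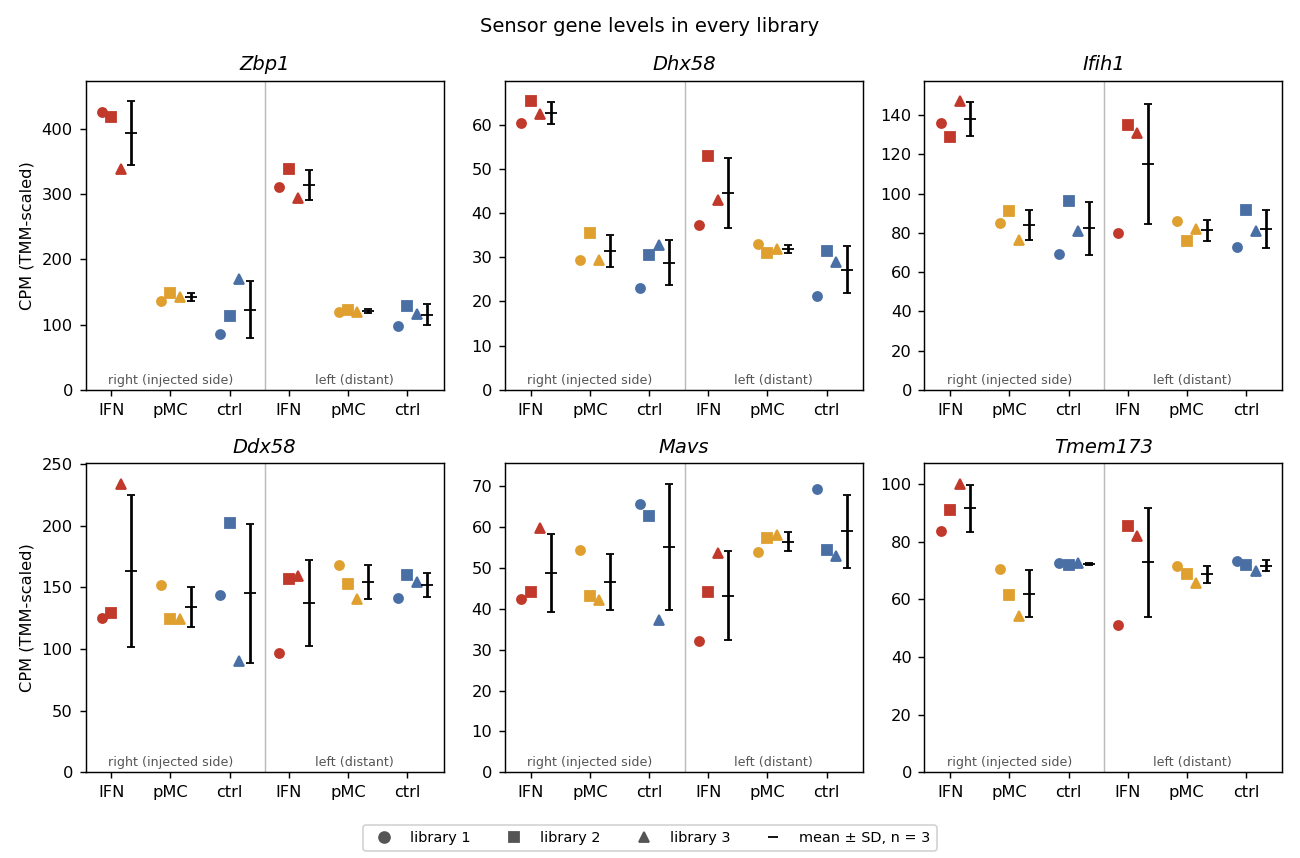
CPM of each tested sensor gene in every library (circle, square and triangle for libraries 1, 2 and 3), with mean ± SD (n = 3) in black, for right and left tumours of mice given IFN-alpha-pMC (IFN), pMC or no cells (ctrl). The Zbp1 values of all 6 IFN-alpha-pMC libraries, 294 to 426 CPM, lie above the 85.4 to 170.1 CPM of the other 12, and Ddx58 values overlap throughout.

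Of the RNA helicases, Dhx58 (ENSMUSG00000017830), the LGP2 gene, whose product has no signalling domain and tunes the other receptors, changed the most. In right tumours its levels were 60.4, 65.3 and 62.4 CPM with IFN-alpha-pMC, 29.3, 35.6 and 29.3 CPM with pMC and 23, 30.6 and 32.8 CPM in controls. In left tumours they were 37.4, 53 and 43 CPM with IFN-alpha-pMC, 32.9, 31 and 31.8 CPM with pMC and 21.3, 31.4 and 28.9 CPM in controls. The lowest IFN-alpha-pMC value, 37.4 CPM in left library 1, was above the highest value of the other 12 libraries, 35.6 CPM. On the right the log2 fold change was 1.12 ± 0.17 against control (2.18-fold, adjusted p = 0.000316) and 1.00 ± 0.17 against pMC (adjusted p = 0.000933), and both calls held in every alternative. On the left it was 0.71 ± 0.17 against control (1.64-fold, adjusted p = 0.0327) and 0.48 ± 0.17 against pMC (adjusted p = 0.0923). The left call against control was lost in 5 of the 6 fits that left out 1 library, with adjusted p-values up to 0.141, and held at 0.0321 without left IFN-alpha-pMC 1. The left change against pMC was called by DESeq2 (0.49, adjusted p = 0.0453) and without the 3 libraries least like their group (0.57, adjusted p = 0.0166). An antisense gene, Dhx58os, shares 141 of the 3272 exon bases of Dhx58 (4.3%) and had 0 to 6 counts per library.

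Ifih1 (ENSMUSG00000026896), the MDA5 gene, was higher on the injected side. In right tumours it stood at 136, 129 and 147 CPM with IFN-alpha-pMC, at 84.8, 91.2 and 76.2 CPM with pMC and at 69.4, 96.3 and 80.9 CPM in controls, so the IFN-alpha-pMC libraries lay above both other groups. Distant tumours had it at 80, 135 and 131 CPM with IFN-alpha-pMC, at 86, 75.6 and 82.1 CPM with pMC and at 72.6, 91.8 and 80.7 CPM in controls. Left IFN-alpha-pMC libraries 2 and 3 were thus as high as those of the right side, and library 1 lay among the pMC and control values. The right log2 fold change was 0.74 ± 0.18 against control (1.67-fold, adjusted p = 0.0134) and 0.71 ± 0.18 against pMC (1.64-fold, adjusted p = 0.018). The call against control was lost without right control 1 (0.55, adjusted p = 0.135) and with only the compared groups (0.68, adjusted p = 0.171). That against pMC was lost without right IFN-alpha-pMC 3 (0.64, adjusted p = 0.052), right pMC 1 (0.72, adjusted p = 0.062) or right pMC 3 (0.64, adjusted p = 0.0837). On the left the change was 0.50 ± 0.18 against control (adjusted p = 0.0794) and 0.51 ± 0.18 against pMC (adjusted p = 0.0925). Without left IFN-alpha-pMC 1 both left comparisons were called, at 0.69 (adjusted p = 0.0351) against control and 0.70 (adjusted p = 0.0349) against pMC. DESeq2 with all libraries also called both, at 0.48 (adjusted p = 0.0492) against control and 0.51 (adjusted p = 0.0475) against pMC.

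Ddx58 (ENSMUSG00000040296), the RIG-I gene, was not called in any of the 11 comparisons. In right tumours it stood at 125, 129.5 and 234 CPM with IFN-alpha-pMC, at 152, 124 and 124 CPM with pMC and at 144, 202 and 90 CPM in controls. In left tumours it stood at 97, 157 and 159 CPM with IFN-alpha-pMC, at 168, 153 and 140.2 CPM with pMC and at 141, 160.2 and 154 CPM in controls. The highest and the lowest of the 18 values, 234 and 90 CPM, were those of right IFN-alpha-pMC 3 and right control 3. The log2 fold change against control was 0.17 ± 0.28 on the right (95% interval -0.43 to 0.77, adjusted p = 0.79) and -0.14 ± 0.28 on the left (interval -0.74 to 0.46, adjusted p = 0.711), and the right interval reaches the size of the change called for Ifih1. The sign on the right rested on those libraries: it was -0.29 when library 3 of the right IFN-alpha-pMC group was dropped. With all 3 libraries least like their group dropped it was -0.49 (adjusted p = 0.0133, lower with IFN-alpha-pMC), from 2 libraries in each right group compared. Right pMC against the same 2 controls was then also called lower, at -0.37 (adjusted p = 0.048). Against pMC the change was 0.29 ± 0.28 on the right (adjusted p = 0.64) and -0.16 ± 0.28 on the left (adjusted p = 0.708).

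The MDA5 and RIG-I genes can be set against each other within a library, where library scaling drops out. Ifih1 counts over Ddx58 counts were 1.09, 0.999 and 0.628 in right IFN-alpha-pMC libraries, 0.557, 0.735 and 0.614 in right pMC libraries and 0.483, 0.477 and 0.899 in right controls. In left tumours the ratio was 0.825, 0.86 and 0.828 with IFN-alpha-pMC, 0.513, 0.495 and 0.585 with pMC and 0.513, 0.573 and 0.524 in controls. The 3 left IFN-alpha-pMC libraries lay close together and above the 6 other left libraries, left library 1 included. On the right the groups overlapped, with library 3 of the IFN-alpha-pMC group low and library 3 of the controls high. Dhx58 over Ddx58 was also higher on the left, at 0.386, 0.338 and 0.271 with IFN-alpha-pMC. It was 0.196, 0.203 and 0.227 with pMC and 0.151, 0.196 and 0.188 in controls. The left IFN-alpha-pMC values of this ratio spread more (SD 0.0576, against 0.0195 for Ifih1 over Ddx58). On the right its groups overlapped, at 0.483, 0.504 and 0.267 with IFN-alpha-pMC and 0.16, 0.151 and 0.365 in controls.

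**Figure D3:**
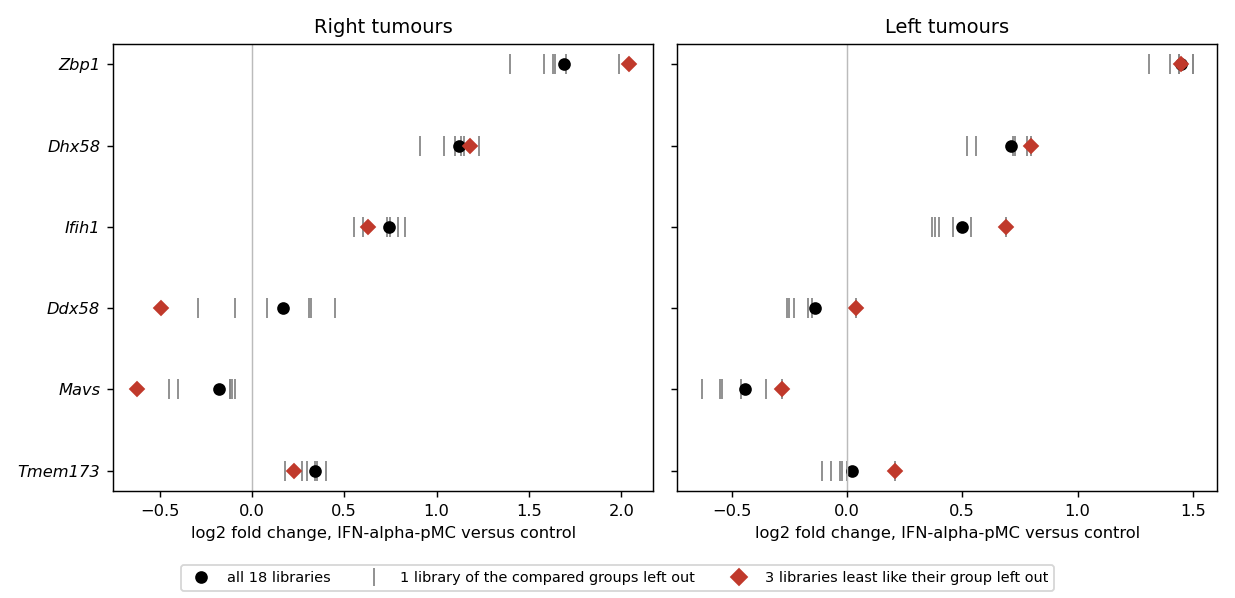
Log2 fold change of IFN-alpha-pMC against control for each sensor gene with all 18 libraries (black), with 1 library of the compared groups left out (grey ticks) and without the 3 libraries least like their group (red). Zbp1, Dhx58 and Ifih1 stay above 0 on both sides, whereas the right values of Ddx58 run from -0.49 to 0.45.

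Neither adaptor was called against control. Mavs (ENSMUSG00000037523) stood at 42.4, 44.1 and 59.8 CPM in right IFN-alpha-pMC tumours, at 54.5, 43.1 and 42.3 CPM in right pMC tumours and at 65.7, 62.7 and 37.4 CPM in right controls. On the distant side it stood at 32.1, 44.1 and 53.8 CPM with IFN-alpha-pMC, at 53.9, 57.5 and 58.1 CPM with pMC and at 69.3, 54.5 and 53 CPM in controls. All 3 left IFN-alpha-pMC values were below all 3 left pMC values, and right groups overlapped. The log2 fold change against control was -0.18 ± 0.22 on the right (adjusted p = 0.705) and -0.44 ± 0.22 on the left (interval -0.93 to 0.04, adjusted p = 0.159), and against pMC it was 0.07 ± 0.22 and -0.38 ± 0.22 (adjusted p = 0.911 and 0.254). Mavs was called lower against control on the right only without the 3 libraries least like their group (-0.62, adjusted p = 0.0026), and right pMC against the same 2 controls was then called lower too (-0.46, adjusted p = 0.0161).

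Tmem173 (ENSMUSG00000024349), the STING gene, was flat in the controls. It stood at 83.8, 90.9 and 100.1 CPM in right IFN-alpha-pMC tumours, at 70.4, 61.4 and 54.3 CPM in right pMC tumours and at 72.5, 71.9 and 72.6 CPM in right controls. Distant tumours had it at 51.1, 85.3 and 82.1 CPM with IFN-alpha-pMC, at 71.6, 68.8 and 65.7 CPM with pMC and at 73.4, 72 and 69.7 CPM in controls. The right IFN-alpha-pMC libraries were above both other right groups, and the right pMC libraries were below the controls. Against pMC the right log2 fold change was 0.56 ± 0.17 (1.48-fold, adjusted p = 0.0391), and against control it was 0.34 ± 0.17 (interval -0.02 to 0.70, adjusted p = 0.22). The call against pMC was lost in 8 of 12 alternatives, at adjusted p-values up to 0.169: in 5 of the 6 fits that left out 1 library (the exception was the fit without right pMC 1, at 0.0464), with no filter on low counts (0.0915), with only the compared groups (0.0735) and with the replicate number in the fit (0.0685). On the left the change was 0.02 ± 0.17 against control and 0.09 ± 0.17 against pMC (adjusted p = 0.923 and 0.739), with library 1 below the other groups and libraries 2 and 3 above them.

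Trex1 (ENSMUSG00000049734), the DNA exonuclease, was listed with 0 counts in all 18 libraries. For a gene whose reads can be counted, an empty row would set a limit of 3 counts per library, or 0.128 to 0.209 CPM. In the GENCODE M21 annotation on GRCm38 all 1147 of its exon bases (100%) also lie in exons of Atrip on the same strand, and Atrip had 134 to 325 counts per library. Whether this shared sequence is the reason for the empty row was not tested, so the row gives neither a level nor an upper limit of Trex1 in these tumours.

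Levels of different genes can be compared only per length, so CPM was divided by the summed exon length in kilobases. On this scale Zbp1 had the highest mean of the 6 genes in every group. Its mean was 112 ± 13.7 CPM per kilobase in right IFN-alpha-pMC tumours, 40.4 ± 1.72 in right pMC tumours and 34.8 ± 12.3 in right controls (SD, n = 3). In the library right control 1, Tmem173 was above Zbp1, at 26.4 against 24.2 CPM per kilobase. The share of Zbp1 in the summed level of the 6 genes was 51.1 ± 6.62% in right IFN-alpha-pMC tumours, 35 ± 2.88% in right pMC tumours and 29.5 ± 9.7% in right controls. On the left the share was 51.1 ± 6.32%, 29.1 ± 0.777% and 27.9 ± 2.56% in the same order of groups. The receptors Ifih1 and Dhx58 kept shares of 7.13 to 8.89% in all 6 groups, while those of Mavs, Ddx58 and Tmem173 were smaller in both IFN-alpha-pMC groups than in the other 4. Shares add up to the whole, so a larger Zbp1 share lowers the others whatever their own levels. Right means with IFN-alpha-pMC and in controls were 33.4 and 26.4 CPM per kilobase for Tmem173 and 23.1 and 20.6 for Ddx58. They were 14.6 and 16.5 for Mavs and 19.2 and 8.8 for Dhx58. Scaled to the longest transcript instead, Ddx58 (3874 in place of 7050 bases) came out above Zbp1 in the left pMC and left control means and in the right control mean. The first place of Zbp1 in these 3 groups thus depends on the length used. With the longest transcript its share was 44.5% (right) and 44.4% (left) with IFN-alpha-pMC, against 22.9 to 29.1% in the other 4 groups.

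**Figure D4:**
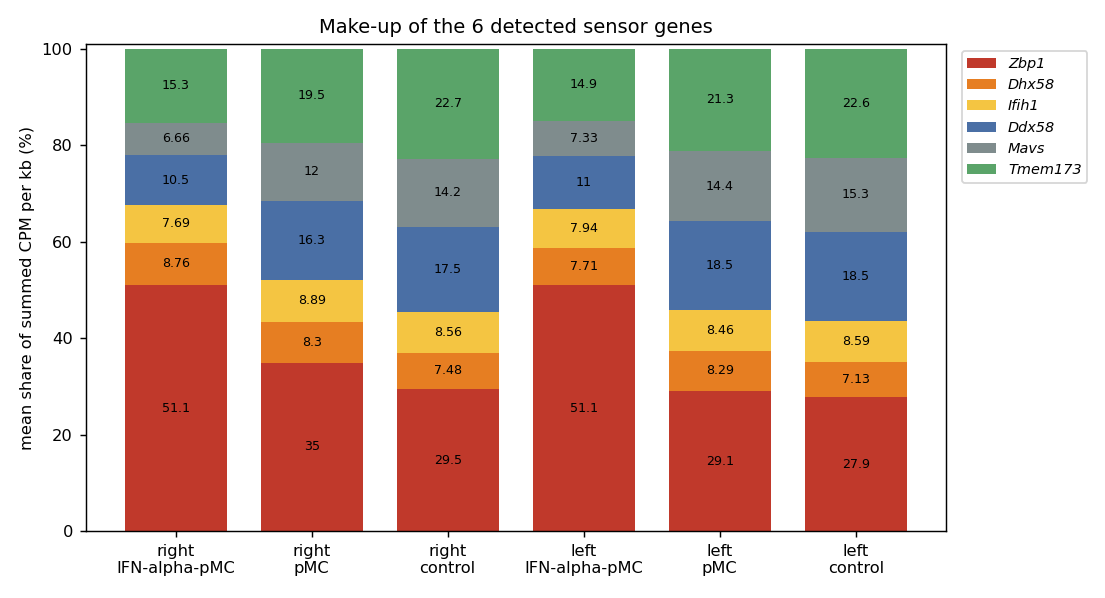
Mean share of each sensor gene in the summed CPM per kilobase of the 6 detected genes, for each of the 6 groups (n = 3 each). With summed exon lengths, Zbp1 takes 51.1% in both IFN-alpha-pMC groups, against 27.9 to 35% in the pMC and control groups.

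Between sides, no sensor gene was called. Within IFN-alpha-pMC tumours, right against left gave 0 calls among the 6 genes and 1 at an unadjusted p under 0.05, where 2.53% of all genes were called (369 higher, 6 lower), and DESeq2 called none of the 6. That gene was Dhx58, at 62.7 ± 2.44 CPM on the right and 44.5 ± 7.91 CPM on the left (SD, n = 3), a log2 fold change of 0.50 ± 0.17 (adjusted p = 0.202). Zbp1 stood at 394 ± 48.5 CPM on the right and 314 ± 22.4 CPM on the left (0.33 ± 0.20, adjusted p = 0.524), and the 2 groups did not overlap, by 339 against 338 CPM at the nearest values. Within pMC and within control tumours right against left called none of the 6, where 0% of all genes were called in each, and DESeq2 called no gene. At an unadjusted p under 0.05 there were 310 genes for pMC and 116 for control, with none of the 6 among them.

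The difference between sides in the effect of IFN-alpha-pMC was tested as an interaction. Against control, none of the 6 genes was called and none was under an unadjusted p of 0.05, where 0% of all genes were called (918 of 14849 had an unadjusted p under 0.05; DESeq2 called 86, and no sensor gene). The right effect minus the left effect was 0.23 ± 0.28 for Zbp1 (interval -0.37 to 0.84), 0.41 ± 0.24 for Dhx58 (interval -0.12 to 0.95) and 0.24 ± 0.26 for Ifih1 (interval -0.32 to 0.81). The interval of Ddx58 was the widest, from -0.54 to 1.16. Against pMC, 0 of the 6 were called and 1 was under an unadjusted p of 0.05 (Dhx58, 0.52 ± 0.24, adjusted p = 0.424), where 0.391% of all genes were called.

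**Figure D5:**
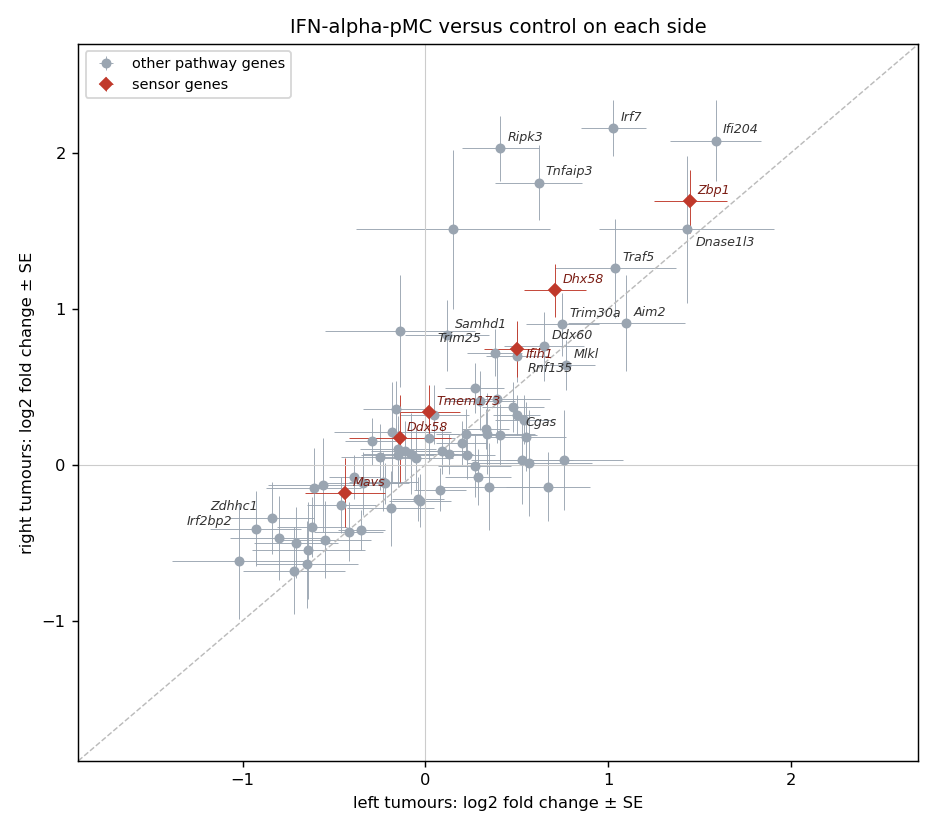
Log2 fold change ± SE of IFN-alpha-pMC against control in right tumours (vertical axis) and left tumours (horizontal axis) for the 6 sensor genes (red) and the other tested genes of their pathways (grey), with genes called on either side named. The dashed line marks equal change, and Zbp1 stands at 1.69 on the right and 1.45 on the left.

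Genes that work with the sensors were taken as 5 lists of 72 genes, of which 71 were tested. Against control, 12 of the 71 were higher and 0 lower on the right, and 6 were higher and 2 lower on the left. Against pMC, 7 were higher and 0 lower on the right, and 5 were higher and 2 lower on the left. The 7 on the right were Ifi204, Irf7, Tnfaip3, Trim30a, Trim25, Samhd1 and Ripk3. Ddx60, Traf5, Rnf135, Dnase1l3 and Mlkl, called on the right against control, were not called there against pMC. On the left the same held for Aim2 and Irf2bp2. With pMC against control edgeR's quasi-likelihood test called none on either side, and Ripk3 on the right was the 1 gene at an unadjusted p under 0.05 (0.54 ± 0.21, adjusted p = 0.945). On the right against control, the calls of Tnfaip3, Ripk3, Irf7 and Ifi204 held in all 12 alternatives, and each of the other 8 was lost in 1 to 8 of them. Among the left calls against control, that of Ifi204 held in all 12 and each of the other 7 was lost in 1 to 8. These shares can be read against the 10.8%, 6.65%, 10.1% and 3.85% of all genes called, in the order right and left against control, right and left against pMC. On the right against pMC, 7 of 71 was near the share of all genes, while the other comparisons were above theirs. The lists were chosen with earlier results of these data known, so these shares are descriptions and no independent test.

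Among 14 other cytosolic receptors, Ifi204 and Ddx60 rose on the right and Ifi204, Aim2 and Cgas on the left, against control. Of all genes, 10.8% were called on the right and 6.65% on the left. Ifi204, a DNA-binding protein of the HIN-200 family, stood at 241, 217 and 165 CPM in right IFN-alpha-pMC tumours, against 34.3, 42.4 and 70.9 CPM in right controls (2.08 ± 0.26, adjusted p = 4.57e-05). In left tumours it stood at 125, 148 and 132 CPM with IFN-alpha-pMC, against 36.1, 47.3 and 50.8 CPM in controls (1.59 ± 0.25, adjusted p = 0.0047). Its near-identical relatives may have split or removed some of its reads. Cgas, the enzyme that makes the messenger that STING binds, changed by 0.50 ± 0.13 on the left against control (adjusted p = 0.0418) and Aim2, the DNA receptor of an inflammasome, by 1.10 ± 0.32 (adjusted p = 0.0493), both close to the threshold. The median of the 14 was 0.08 on the right and 0 on the left, against medians of all genes of -0.03 and 0.07.

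Downstream of MAVS and STING, 2 of 16 tested signalling genes rose against control on the right and 1 on the left. Both counts were near the shares of all genes called, 10.8% on the right and 6.65% on the left. Irf7, which drives the second, larger wave of interferon genes, stood at 243, 248 and 241 CPM in right IFN-alpha-pMC tumours, against 42.4, 52.1 and 69.1 CPM in right controls (2.16 ± 0.18, adjusted p = 2.8e-06). On the distant side it stood at 85.5, 108 and 118 CPM with IFN-alpha-pMC, against 42.3, 55 and 55.4 CPM in controls (1.03 ± 0.18, adjusted p = 0.0065). Traf5, an adaptor of the same route, was higher on the right (1.26 ± 0.32, adjusted p = 0.016). The list's median was 0.11 on the right and 0.21 on the left, and the other 14 genes of the list, kinases and adaptors among them, were not called on the right.

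Of 21 ubiquitin ligases and other regulators, 4 rose on the right against control and 1 rose and 2 fell on the left. The shares of all genes called were 10.8% and 6.65%. Trim25, which ubiquitinates RIG-I, stood at 65.9, 67.3 and 77 CPM in right IFN-alpha-pMC tumours, against 40.6, 44.6 and 42.4 CPM in right controls (0.72 ± 0.15, adjusted p = 0.00376), and Rnf135, another RIG-I ligase, was higher by 0.70 ± 0.17 (adjusted p = 0.0121). Tnfaip3, the ubiquitin-editing enzyme A20 that dampens inflammatory signalling, rose by 1.81 ± 0.24 (adjusted p = 7.79e-05), and Trim30a rose by 0.90 ± 0.20 on the right and 0.75 ± 0.20 on the left (adjusted p = 0.00653 and 0.0415). On the left Irf2bp2 fell by 0.93 and Zdhhc1 by 0.84 on the log2 scale (adjusted p = 0.0408 and 0.0435). Activators and dampeners of the route were thus both among the genes that rose. The list's median was -0.08 on the right and -0.18 on the left.

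Of 13 nucleases and editors that keep self nucleic acid from the sensors, 2 rose on the right and none was called on the left, against control. For all genes the shares called were 10.8% and 6.65%. Dnase1l3, a secreted DNase, changed by 1.51 ± 0.47 (adjusted p = 0.0491) and Samhd1, which breaks down deoxynucleotides, by 0.83 ± 0.23 (adjusted p = 0.0256). On the left the 2 with the smallest p were Skiv2l (-0.62, adjusted p = 0.0586) and Dnase1l3 (1.43, adjusted p = 0.0662), and the list's median was 0.03 on the right and 0.27 on the left. Skiv2l, the helicase of the cytosolic RNA exosome, was lower on the left against pMC (-0.74 ± 0.19, adjusted p = 0.046). That call was lost in 8 of 12 alternatives. Among them were all 6 edgeR fits that left out 1 library, at adjusted p-values from 0.0683 to 0.174.

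Of the 7 cell death partners of ZBP1, Ripk3 and Mlkl rose on the right and Mlkl on the left, against control. Among all genes 10.8% were called on the right and 6.65% on the left. Mlkl, the protein that breaks the membrane in necroptosis, stood at 279, 257 and 226 CPM in right IFN-alpha-pMC tumours, against 137, 153 and 199 CPM in right controls (0.64 ± 0.16, adjusted p = 0.0122). Distant tumours had it at 244, 274 and 251 CPM with IFN-alpha-pMC, against 136, 168 and 148 CPM in controls (0.77 ± 0.16, adjusted p = 0.014). Ripk3, the kinase between ZBP1 and MLKL, was low, at 6.32, 6.34 and 6 CPM in right IFN-alpha-pMC tumours, against 1.51, 1.48 and 1.56 CPM in right controls (2.03 ± 0.21, adjusted p = 1.1e-05). On the left it was at 2.6, 3.39 and 2.66 CPM with IFN-alpha-pMC, against 1.64, 2.28 and 2.62 CPM in controls (0.41 ± 0.21, adjusted p = 0.16). Against control, Zbp1 and Mlkl were thus called on both sides and Ripk3 on the right. The Mlkl call against control was lost in 4 of 12 alternatives on the right and in 3 of 12 on the left. Against pMC, Mlkl was called on the left (0.74 ± 0.16, adjusted p = 0.0212) and not on the right. There Ripk3 alone of the 7 partners was called (1.49 ± 0.20, adjusted p = 0.000101). The right effect minus the left effect of Ripk3 was 1.62 ± 0.29 against control (adjusted p = 0.0723), which did not pass.

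Over the 18 libraries the 6 sensor genes fell into different patterns, described here by Pearson's r of log2 CPM. Libraries share treatment and cell content, so these values are descriptions with no test. Zbp1 and Dhx58 (0.93), Ifih1 and Dhx58 (0.92) and Zbp1 and Ifih1 (0.84) ran together, and so did Ddx58 and Mavs (0.74). Zbp1 stood at -0.11 with Ddx58 and -0.57 with Mavs. The genes most like Zbp1 over all genes tested were Gbp2 and Isg20 (0.99 each) and Ifi204 (0.98), and Ifih1 ran close to Irgm1 (0.97) and Herc6 (0.96). Ddx58 was nearest to Zc3hav1 (0.95), Znfx1 and Adar (0.94 each), and Dhx58 to Parvg, Gsdmd and Sp100 (0.97 each). Mavs was nearest to Ptpn9 and Hgs (0.97 each) and Gne (0.96), and Tmem173 to Syngr2 (0.93), Clic4 and Max (0.92 each).

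Markers of other cell types also differed between the groups. All 4 leukocyte markers were detected and summed to 491 to 541 CPM in right IFN-alpha-pMC tumours, 95.6 to 178 CPM in right pMC tumours and 89 to 175 CPM in right controls. On the left they summed to 219 to 251 CPM with IFN-alpha-pMC, 121 to 153 CPM with pMC and 102 to 140.4 CPM in controls. The 12 monocyte and macrophage markers summed to 1705 to 1968 CPM in right IFN-alpha-pMC tumours, 741 to 1374 CPM in right pMC tumours and 618 to 1530.4 CPM in right controls. On the left they summed to 1167 to 1804 CPM with IFN-alpha-pMC, which overlapped the 796 to 1288 CPM with pMC, and to 668 to 823 CPM in controls. The 12 T cell markers summed to 222 to 297 CPM in right IFN-alpha-pMC tumours, 28.8 to 50.4 CPM in right pMC tumours and 20.2 to 44.4 CPM in right controls, and on the left to 62.7 to 95.3 CPM with IFN-alpha-pMC, 36.1 to 49 CPM with pMC and 22.3 to 40.3 CPM in controls. Of 7 NK cell markers, 7 were called higher on the right and 4 on the left against control, at sums of 44.6 to 73.4 CPM in right IFN-alpha-pMC tumours, 6.8 to 14.3 CPM in right pMC tumours and 4.07 to 12.4 CPM in right controls. All 5 erythroid markers were called lower on the right against control, at sums of 18.1 to 73.8 CPM with IFN-alpha-pMC, 113 to 322 CPM with pMC and 69.1 to 501 CPM in controls, and none was called on the left. Skeletal muscle markers (12 listed, 11 tested) summed to 2011 to 4113 CPM in right IFN-alpha-pMC tumours, 109 to 255 CPM in right pMC tumours and 44.6 to 1073 CPM in right controls, and on the left to 705 to 1179 CPM with IFN-alpha-pMC, 28.9 to 125 CPM with pMC and 24.4 to 374 CPM in controls, with Tnnc2 at 0 in all libraries but 1, where it had 1 count. The melanocyte sum was 0.971 times that of controls on the right and 1.17 times on the left. The part of these cells in the levels of the sensor genes was not tested.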

How the data were processed

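RNA from 18 tumours (6 groups of 3) was sequenced after a stranded mRNA library preparation, per the labels' protocols. The authors deposited raw gene counts, 1 file per library with 37620 gene IDs and 5 summary rows, which were left out of library sizes. Per the submitters' processing notes, the tools were CASAVA 1.8.2, bcl2fastq, FastQC, the trimmer Trimmomatic 0.36, the aligner HISAT2 2.1.0, the read counter HTSeq 0.10.0 and DESeq2 1.20.0, and the build named is mm9. Which annotation release and strand setting were used is not given in the sources used here.

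Counts were scaled by trimmed means, filtered with filterByExpr (14849 genes) and tested with edgeR 4.0.16 (R 4.3.3), by the quasi-likelihood test in 1 model of the 6 group means over all 18 libraries. Benjamini-Hochberg adjustment ran over all of these genes, and calls are at 0.05. Intervals are 95% and use 12 residual degrees of freedom. The procedure was tested on simulated data with 200 changed genes. Alternatives were DESeq2 1.42.0, other size factors, no filter, only the compared groups, the replicate number as a block, each library left out in turn, and 3 libraries left out together. Symbols, exon lengths and overlaps came from GENCODE M21 on GRCm38, which matched 32897 IDs, and no coordinate was moved between builds.

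The sensor genes, the lists and the libraries left out together were chosen with earlier results of these data known. Named genes are the 7 sensors, up to 4 called genes per list and treatment comparison with the largest change (or the 2 with the smallest p), and the 3 genes most correlated with each sensor, of which 1 is not reported here.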

Additional observations from a re-analysis of the deposited data

Results flagged for a closer look

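Irf7 was the gene of the pathway lists for which the effect of IFN-alpha-pMC differed between sides by a test of the difference itself. Against pMC, its right effect minus its left effect was 1.28 ± 0.25 on the log2 scale (edgeR's quasi-likelihood test, adjusted p = 0.0377). It stood at 243, 248 and 241 CPM in right IFN-alpha-pMC tumours, against 60.4, 54.5 and 58.7 CPM in right pMC tumours. In left tumours it stood at 85.5, 108 and 118 CPM with IFN-alpha-pMC, against 52.6, 63.5 and 62.8 CPM with pMC. Against control the same difference was 1.13 ± 0.25 (adjusted p = 0.137) and did not pass. The call against pMC held in 9 of 18 alternatives, with values from 1.13 to 1.38. Leukocyte markers also differed between sides in IFN-alpha-pMC tumours, at a sum of 491 to 541 CPM on the right and 219 to 251 CPM on the left, and their part in the level of Irf7 was not tested.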

How the results depend on the processing

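Zbp1 kept its 4 calls, and Dhx58 its 2 right calls, in every alternative. Counts of all genes called moved more than those of the sensors, and the cause was not tested. With DESeq2 they were 2837 (left, IFN-alpha-pMC against control), 1985 (left, against pMC), 2 and 1 (pMC against control, right and left), and 86 and 253 for the right minus left effect against control and pMC. With only the compared groups they were 582 on the right and 3062 on the left against control, 2538 on the left against pMC, 1 for left pMC against control and 190 for right against left with IFN-alpha-pMC. With no filter, 7 genes were called for the right minus left effect against control. No comparison had all 3 correlations between same-numbered libraries over 0.1, the level taken as pairing. They were all above 0 for right pMC against control (0.19, 0.02 and 0.37) and right against left pMC (0.1, 0.01 and 0.13). They were mixed for right against left IFN-alpha-pMC (0.3, -0.25 and 0.44) and right against left controls (0.6, 0.12 and -0.02). The numbers were thus not used as pairs, though 3 libraries per group are too few to show whether tumours shared a mouse. With the replicate block the counts were 464 and 350 (left, against control and pMC), and 41 and 127 for the right minus left effect against control and pMC.

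Without the 3 libraries least like their group, the counts were 8175 and 4331 against control (right and left), 4287 and 4142 against pMC, 5067 for right pMC against control, 863 and 1 for right against left with IFN-alpha-pMC and in controls, and 761 for the right minus left effect against control. Sensor genes called then numbered 5 on the right against control, 3 on the left against pMC and 3 for right pMC against control, and Ddx58 turned to -0.49 on the right against control (adjusted p = 0.0133). That choice of libraries narrows the spread within groups, so these calls can be too many. DESeq2 with all libraries also called 3 on the left against pMC.

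With each library left out in turn, genes called ranged from 1090 to 3946 (right) and 86 to 494 (left) against control, 1027 to 1893 and 33 to 414 against pMC, 0 to 1 for right pMC against control, 141 to 360 for right against left with IFN-alpha-pMC, and 0 to 13 and 0 to 85 for the right minus left effect against control and pMC. Sensor genes called ranged from 2 to 3 (right) and 1 to 3 (left) against control, and from 2 to 3 and 1 to 2 against pMC. The highest right count against control came without right control 3, and the lowest left counts without left control 3 (against control) and left IFN-alpha-pMC 2 (against pMC). The 6 tested sensors had at least 378 counts in every library; Ripk3, with 25 to 34 counts per right control library, is limited by depth.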
